A study of Mus musculus with 42 samples.

Results

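Actins polymerize into the thin filaments of the sarcomere and of smooth muscle and into the cortical cytoskeleton of every cell. Tropomyosins are coiled-coil dimers that lie along actin filaments and control which proteins can bind them. Mammals use separate genes for these settings. The skeletal (Acta1) and cardiac (Actc1) alpha-actins build the sarcomere, and cardiac alpha-actin is also made early in skeletal muscle development. Acta2 and Actg2 encode the vascular and enteric smooth muscle actins, and Actb and Actg1 encode the cytoplasmic actins. Tpm1 and Tpm2 give sarcomeric and smooth muscle tropomyosins as well as cytoskeletal ones, Tpm3 gives a slow-fibre form from an upstream promoter and a cytoskeletal form from a downstream promoter, and Tpm4 is mainly cytoskeletal.

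These 10 genes, 6 actins and 4 tropomyosins, were taken by symbol from the RNA-seq count files, which list 24466 gene symbols, and all 10 were present and tested. The study compared iPax7 cells, muscle precursors grown from mouse embryonic stem cells with a Pax7 gene that doxycycline switches on, sorted as PDGFαR+Flk-1- cells, with satellite cells, the resident muscle stem cells, isolated from muscle of mice with a Pax7-ZsGreen reporter. The +Dox group (3 libraries) was kept in doxycycline (0.75 µg/ml in the study's methods, while the labels write mg/ml), the -Dox group (2 libraries) had been without it for 3 days, and the satellite cell group had 3 libraries. Both iPax7 groups carry the transgene and differ in the inducer, while the satellite cells differ from them in origin, isolation and culture, so those differences cannot be told apart. Each group is 1 sample in the labels, with its libraries as separate files, so the tests below measure the spread between libraries, which may be technical.

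Pax7 was at 12760, 14130 and 11610 normalized counts in the +Dox libraries, 220.6 and 269.5 in -Dox and 8504, 3926 and 5456 in satellite cells (normalized counts are counts scaled to a common library size). Libraries held between 39010958 and 54674619 counts on genes. Reads with more than 1 alignment, which were set aside, made up 7.11% to 7.60% of the +Dox and -Dox reads but 23.6% to 30.7% of the satellite cell reads. The third +Dox library stood apart from the other +Dox libraries, with a chi-square per gene of 418 and 301 against them and 46.8 between them. The satellite cell libraries were as far apart, at 429 and 394 between the first and the others and less between the others, and the -Dox libraries differed by 50. The summed markers of other cell types were also higher in the satellite cell libraries. The 4 endothelial markers summed to 11380 to 18320 normalized counts there and to 0.919 to 165.7 in the iPax7 libraries, and the 7 smooth muscle and pericyte markers summed to 22900 to 35980 there, 527.2 to 675.3 in +Dox and 743.1 to 1076 in -Dox. The 6 fibroblast markers summed to 59140 to 109600 in satellite cells, 5248 to 12600 in +Dox and 4141 to 5941 in -Dox, and the 6 blood markers to 2078 to 9384, 157.5 to 464.3 and 204 to 307.4. Notch3 gave 13660, 11600 and 10540 of the smooth muscle and pericyte sums in satellite cells, and Rgs5 gave 10270, 18480 and 9683. Of the markers tested in these lists, Cnn1, Ly6a and Cd68 were not called in satellite cells against +Dox. The 7 adult fibre markers summed to 1191 to 1339 in +Dox, 209700 to 228400 in -Dox and 1029 to 2460 in satellite cells. In satellite cells against +Dox, 5 of these 7 were higher, 1 (Mylpf) lower and 1 not called, beside 25.1% higher and 19.8% lower over all genes. Ckm, also on the myocyte list below, was at 1535, 525.4 and 1132 in satellite cells and 12.0, 14.8 and 0 in +Dox. Whether other cells or fibre RNA were present, and their part in the actin and tropomyosin values of the satellite cell libraries, was not tested. The 6 differentiating myocyte markers, led by Myog, summed to 374600 to 424600 in -Dox, against 4175 to 5613 in +Dox and 3937 to 5161 in satellite cells. The 5 cardiac markers summed to 7.285 to 44.32 in +Dox, 417.2 to 606.5 in -Dox and 0 to 142.4 in satellite cells. In -Dox nearly all of this was Myh6, a cardiac myosin heavy chain, at 389.7 and 606.5 against 0, 0.741 and 0 in +Dox (edgeR adjusted p = 0.0048), while Myl7, Nppa and Nkx2-5 were at 0 in both -Dox libraries. The part of this in the values of Actc1 was not tested.

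The actin genes are close copies. Over their last 1128 coding bases Acta1 was identical to Actc1 at 86.2% of positions, to Acta2 at 85.4%, to Actg2 at 84.9%, to Actb at 85.0% and to Actg1 at 83.8%, and the closest pair was Actb and Actg1 at 88.7%. The last 60 coding bases of each, ending with the stop codon, are shown because they make plain how few letters separate a read of one actin from a read of another. Capitals mark letters that differ from Acta1.
Acta1: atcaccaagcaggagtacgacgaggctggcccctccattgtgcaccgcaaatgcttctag
Actc1: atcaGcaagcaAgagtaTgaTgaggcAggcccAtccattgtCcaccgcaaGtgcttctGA
Acta2: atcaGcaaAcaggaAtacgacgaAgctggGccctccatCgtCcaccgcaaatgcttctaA
Actg2: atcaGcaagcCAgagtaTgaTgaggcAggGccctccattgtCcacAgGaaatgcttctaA
Actb: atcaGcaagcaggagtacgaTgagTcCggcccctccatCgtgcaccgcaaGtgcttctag
Actg1: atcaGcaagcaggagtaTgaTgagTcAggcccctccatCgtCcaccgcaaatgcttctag
These stretches differ from Acta1 at 10 (Actc1), 8 (Acta2), 11 (Actg2), 6 (Actb) and 7 (Actg1) of 60 positions. Sequences come from the GENCODE M1 transcripts on NCBIM37 (mm9), the build of the files.

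Such differences are frequent enough that most 50-base windows of the transcripts are still specific. Of the windows of Acta1, 97.8% occurred nowhere else in the genome or in transcripts of other genes, and the share was 100% for Actc1, Actg2, Tpm1 and Tpm2 and 99.6% for Acta2. The exceptions were Actb (87.6%), Tpm4 (80.2%), Tpm3 (59.97%) and Actg1 (28.1%). Among transcripts alone the share for Actg1 was 98.4%, since most of its copies lie elsewhere in the genome. The levels of Actg1, Tpm3 and, to a lesser degree, Tpm4 and Actb are therefore less certain than those of the other 6 genes, because a read that fits 2 places is not counted. Each value is also a sum over the transcripts of a gene, so that muscle and cytoskeletal forms of Tpm1 and Tpm3 are counted together.

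The sarcomeric actins rose by the largest factors of the 10 genes when doxycycline was withdrawn. Acta1 (chr8:126415669-126418651, minus strand, 7 exons) was at 2483, 2286 and 1995 normalized counts in the +Dox libraries, 1161240 and 1108280 in -Dox, and 9658, 4628 and 7032 in satellite cells. The 3 groups did not overlap, and -Dox lay far above both precursor groups. The increase from +Dox to -Dox was 8.98 ± 0.39 on the log2 scale (SE), 503-fold (edgeR adjusted p = 6.41e-06). Satellite cells were 3.15-fold above +Dox (log2 change 1.66 ± 0.28, adjusted p = 0.00139) and lower than -Dox, with a log2 change of -7.32 ± 0.37 (adjusted p = 5.99e-06).

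Actc1 (chr2:113873018-113879284, minus strand) followed the same order from a lower base. Its normalized counts were 134, 293 and 118 in +Dox, 309309 and 294738 in -Dox and 820, 406 and 448 in satellite cells. Again no group overlapped another. The log2 change from +Dox to -Dox was 10.70 ± 0.59, or 1658-fold (adjusted p = 1.45e-05), and that from +Dox to satellite cells was 1.62 ± 0.40, or 3.07-fold (adjusted p = 0.00989). The latter call was lost when only the libraries of these 2 groups were fitted (adjusted p = 0.0595). Against -Dox, satellite cells were lower by a log2 change of -9.08 ± 0.56 (adjusted p = 1.35e-05).

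Per length, Acta1 exceeded Actc1 in every library, and the ratio between them moved with the group. Actc1 made up 4.59%, 10.3% and 5.04% of both sarcomeric actins in the +Dox libraries, 19.2% in both -Dox libraries and 7.05%, 7.27% and 5.39% in satellite cells. The -Dox values lay above all others, and the +Dox and satellite cell ranges overlapped.

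Acta2, the vascular smooth muscle actin that is also made by immature skeletal muscle cells, rose with the sarcomeric genes. Its normalized counts were 6218, 6981 and 3125 in +Dox, 53987 and 53844 in -Dox and 3707, 14637 and 11155 in satellite cells (chr19:34315580-34329826, minus strand). The -Dox libraries were above all others, and the satellite cell and +Dox ranges overlapped. From +Dox to -Dox the log2 change was 3.31 ± 0.53, or 9.91-fold (adjusted p = 0.00527), and satellite cells were below -Dox (log2 change -2.46 ± 0.52, adjusted p = 0.00531). Between satellite cells and +Dox the test was not passed (log2 change 0.85 ± 0.47, adjusted p = 0.164), but without the first satellite cell library, in which Acta2 was lowest, it was (1.25, adjusted p = 0.0176). The other smooth muscle actin, Actg2 (chr6:83462899-83486259, minus strand), was counted with between 9 and 229 reads a library, and its normalized counts were 48.1, 35.5 and 46.4 in +Dox, 92.8 and 211 in -Dox and 86.9, 49.6 and 11.9 in satellite cells. None of its 3 comparisons passed (adjusted p = 0.371, 0.892 and 0.241).

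The cytoplasmic actins had lower values in -Dox than in either precursor group. For Actb (chr5:143664794-143668433, minus strand) the normalized counts were 331900, 436340 and 890401 in +Dox, 191548 and 176239 in -Dox and 542770, 328250 and 523706 in satellite cells. The third +Dox library was the highest of all 8 by a wide margin. The -Dox libraries lay below the rest, but against +Dox the test was not passed (log2 change -1.59 ± 0.43, adjusted p = 0.0565, and 0.0429 without the first +Dox library), and against satellite cells it was (1.34 ± 0.43 in satellite cells over -Dox, adjusted p = 0.0333). The second of these calls was lost without the second +Dox library or without any of 4 of the 5 other libraries of the 2 groups compared, with adjusted p between 0.0548 and 0.184. Without the third +Dox library the satellite cell value relative to +Dox turned from -0.25 to 0.28, neither passing the test.

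Actg1 (chr11:120207004-120209856, minus strand) was at 336491, 324300 and 230545 normalized counts in +Dox, 166106 and 175814 in -Dox and 336271, 392799 and 408148 in satellite cells. Here the third +Dox library was the lowest of its group, the opposite of Actb. The log2 change from +Dox to -Dox was -0.80 ± 0.25 (adjusted p = 0.0915, and 0.034 without the third +Dox library), and satellite cells were 2.22-fold above -Dox (1.15 ± 0.25, adjusted p = 0.00645), a call that was lost without either -Dox library (adjusted p = 0.0711 and 0.065). Actb made up 51.4%, 59.0% and 80.5% of both cytoplasmic actins in +Dox, 55.2% and 51.8% in -Dox and 63.3%, 47.2% and 57.9% in satellite cells, so that the groups overlapped. These shares rest on union exon length, while 28.1% of the 50-base windows of Actg1 were unique and 87.6% of those of Actb. Per unique window Actg1 would stand above Actb in every library but the third +Dox library, so which of them was higher is not settled.

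**Figure D1:**
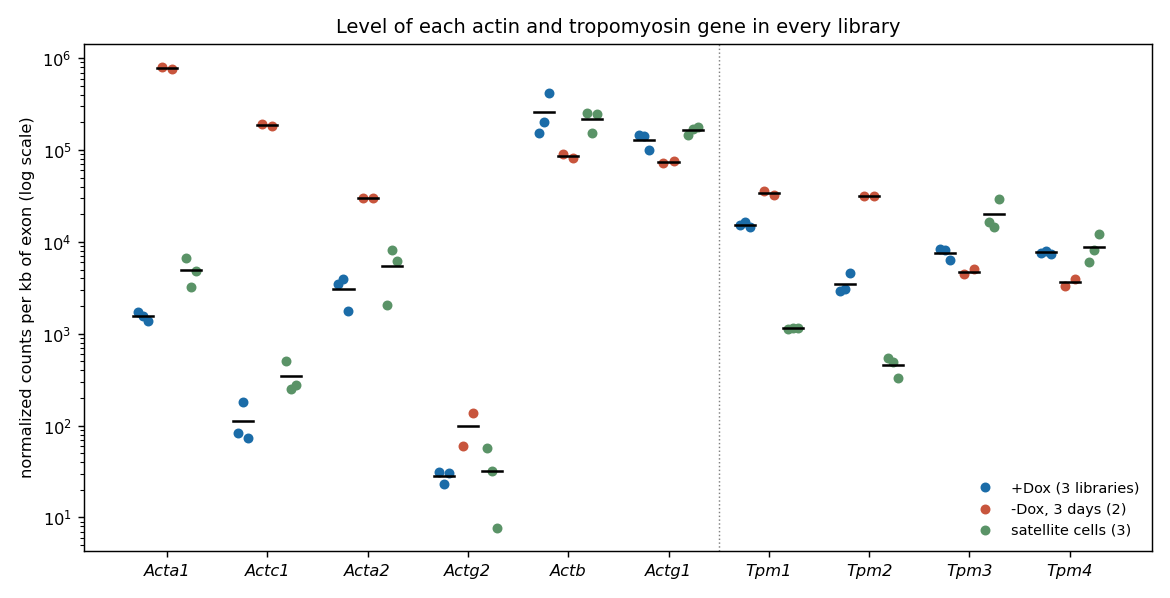
Normalized counts per kilobase of exon (log axis) of the 6 actins and 4 tropomyosins in the 8 RNA-seq libraries, 1 point a library, with a black line at each group's mean. The 2 -Dox points stand above all others for Acta1, Actc1, Acta2, Actg2, Tpm1 and Tpm2 and below all others for Actb, Actg1, Tpm3 and Tpm4, and the 3 satellite cell points are the lowest for Tpm1 and Tpm2.

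Among the tropomyosins, Tpm1 and Tpm2 were highest in -Dox and lowest in satellite cells. Tpm1 (chr9:66870397-66897213, minus strand) was at 73421, 78744 and 68961 normalized counts in +Dox, 169968 and 155282 in -Dox and 5416, 5536 and 5576 in satellite cells. The satellite cell libraries agreed closely with each other and were the lowest of the 3 groups. Tpm1 was 2.21-fold higher in -Dox than in +Dox (log2 change 1.14 ± 0.21, adjusted p = 0.00955) and 13.4-fold lower in satellite cells than in +Dox (log2 change -3.74 ± 0.21, adjusted p = 5.86e-06). The first of these calls was lost without the second +Dox library (adjusted p = 0.0502) or either -Dox library (0.125 and 0.0799), each time with the direction kept.

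Tpm2 (chr4:43527583-43536637, minus strand) was at 7979, 8392 and 12441 normalized counts in +Dox, 86684 and 85934 in -Dox and 1492, 1332 and 901 in satellite cells. No group overlapped another. The increase in -Dox was 8.99-fold (log2 change 3.17 ± 0.31, adjusted p = 0.000309), and satellite cells were 7.74-fold below +Dox (-2.95 ± 0.29, adjusted p = 7.57e-05). Against -Dox, satellite cells were lower by log2 changes of -4.88 ± 0.23 for Tpm1 and -6.12 ± 0.34 for Tpm2 (adjusted p = 5.64e-06 and 9.01e-06).

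Tpm3 and Tpm4 had their lowest values in -Dox. Tpm3 (chr3:89876571-89904824, plus strand) was at 30527, 29697 and 22673 normalized counts in +Dox, 16066 and 18095 in -Dox and 59865, 52088 and 105665 in satellite cells. The third satellite cell library was well above the other satellite cell libraries. Satellite cells were 2.63-fold above +Dox (log2 change 1.39 ± 0.30, adjusted p = 0.00477) and 4.25-fold above -Dox (2.09 ± 0.35, adjusted p = 0.00167), while -Dox against +Dox was not called (-0.69 ± 0.33, adjusted p = 0.269).

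Tpm4 (chr8:74658874-74677041, plus strand) had 16229, 17007 and 15818 normalized counts in +Dox, 7030 and 8371 in -Dox and 12978, 17179 and 25917 in satellite cells. The +Dox and satellite cell ranges overlapped and the -Dox libraries were below both. It was 2.43-fold higher in satellite cells than in -Dox (log2 change 1.28 ± 0.32, adjusted p = 0.0112), which was lost without either -Dox library (adjusted p = 0.11 and 0.0703). Neither -Dox nor satellite cells passed against +Dox (log2 changes of -1.09 ± 0.31 and 0.19 ± 0.27, adjusted p = 0.0711 and 0.593), though Tpm4 passed as lower in -Dox without the first or the third satellite cell library (adjusted p = 0.0271 and 0.0323).

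**Figure D2:**
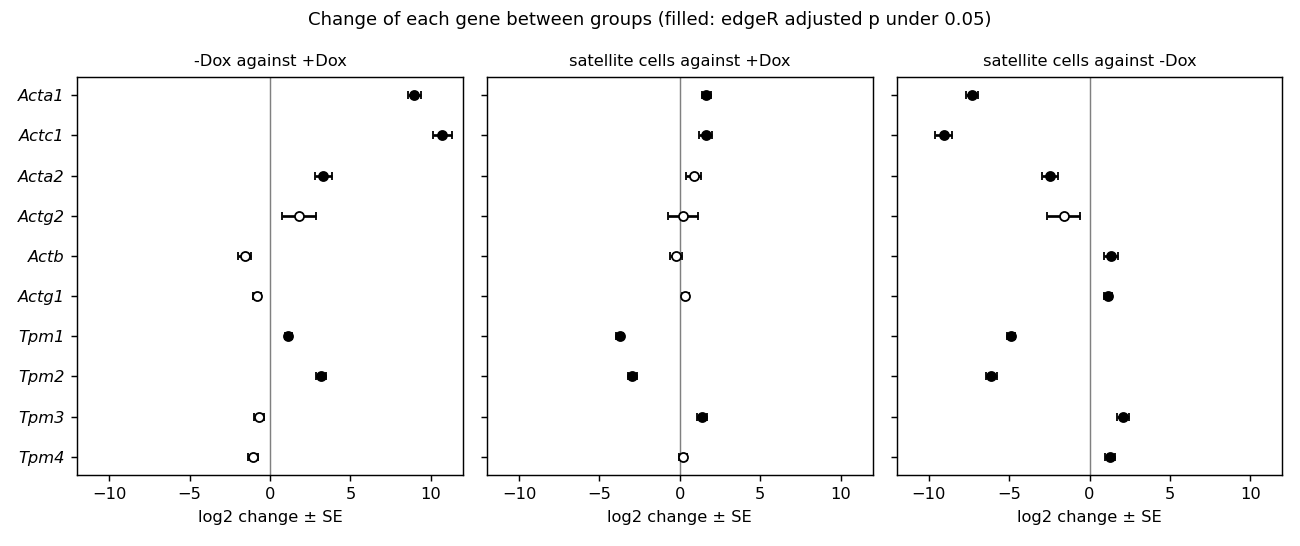
Log2 change with its standard error (horizontal axis) of each gene in -Dox against +Dox, satellite cells against +Dox and satellite cells against -Dox, from the edgeR fit over all 8 libraries. Filled points passed an adjusted p of 0.05, as Acta1 (8.98) and Tpm1 (1.14) did in the first panel, and open points such as Actb (-1.59) did not.

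In counts, 5 of the 10 genes were higher in -Dox than in +Dox and 0 were lower, where 4.66% of the 14836 genes tested were higher and 3.04% lower at the same threshold. With DESeq2, Actb, Actg1 and Tpm4 were also called, as lower (adjusted p = 0.006, 0.0305 and 0.0165), so that 8 of the 10 genes passed, and of the 14374 genes with a DESeq2 adjusted p 7.8% were higher and 7.07% lower. In satellite cells against +Dox, 3 were higher (Acta1, Actc1, Tpm3) and 2 lower (Tpm1, Tpm2), with 25.1% and 19.8% of all genes called in these directions. Against -Dox, satellite cells were higher in 4 (Actb, Actg1, Tpm3, Tpm4) and lower in 5 (Acta1, Actc1, Acta2, Tpm1, Tpm2), against 20.9% and 18.1% of all genes. These comparisons share groups and are not independent. All 10 genes had groups that did not overlap in -Dox against +Dox and in satellite cells against -Dox, and 5 did in satellite cells against +Dox, where the background over all genes was 45.3%, 64.3% and 56.5%. The median log2 change of the 10 genes was 1.47, 0.27 and -2.04 in -Dox against +Dox, satellite cells against +Dox and satellite cells against -Dox, beside 0.00, 0.17 and 0.23 over all genes tested.

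Levels can be compared between genes once counts are divided by exon length. Among the 6 actins, the sarcomeric pair made up 0.585%, 0.501% and 0.279% in +Dox, 83.8% and 83.3% in -Dox and 1.75%, 1.02% and 1.18% in satellite cells. The remainder in both precursor groups was almost wholly cytoplasmic actin, at 98.7% ± 0.611 (SD, n = 3) in +Dox and 97.2% ± 0.617 (n = 3) in satellite cells, against 13.8% ± 0.231 (n = 2) in -Dox. Acta1 alone went from 0.424% ± 0.148 in +Dox to 67.5% ± 0.234 in -Dox, and Actc1 from 0.0308% ± 0.0191 to 16.1% ± 0.0736. Acta2 held 0.862% ± 0.455 in +Dox, 2.61% ± 0.072 in -Dox and 1.46% ± 0.966 in satellite cells. The sarcomeric share therefore rose by 83.10 percentage points between +Dox and -Dox while that of Acta2 rose by 1.74 points. For each of Acta1, Actc1 and Acta2 the exact two-sided permutation test of -Dox against +Dox gave p = 0.1, the smallest that 3 against 2 libraries allow, or 0.18 adjusted over the 18 actin tests.

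Total actin rose less than the share of its sarcomeric forms. Summed per kilobase, the 6 actins were at 307628, 351532 and 520465 normalized counts in +Dox, 1186802 and 1138251 in -Dox and 410163, 336912 and 434749 in satellite cells. The 2 -Dox libraries were above the rest, and the +Dox and satellite cell ranges overlapped.

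The tropomyosins divided the groups in another way. Tpm1 held 44.7%, 46.0% and 44.1% of the 4 tropomyosins in +Dox and 47.4% and 44.5% in -Dox, so that these groups overlapped, but 4.65%, 4.79% and 2.71% in satellite cells. Tpm2 went from 8.51%, 8.60% and 13.9% in +Dox to 42.3% and 43.2% in -Dox, with 2.24%, 2.02% and 0.768% in satellite cells. Tpm3 was at 24.6%, 23.0% and 19.2% in +Dox, 5.94% and 6.88% in -Dox and 68.1%, 59.8% and 68.2% in satellite cells. Tpm4 took 22.4% ± 0.279 (n = 3), 4.90% ± 0.703 (n = 2) and 28.9% ± 4.23 (n = 3). Tpm3 and Tpm4 together thus made up 94.3% ± 1.94 of tropomyosin in satellite cells, 44.7% ± 2.50 in +Dox and 11.3% ± 1.37 in -Dox. The share of Tpm1 in -Dox minus +Dox was 1.01 percentage points (exact permutation p = 0.6), and in satellite cells minus +Dox it was -40.89 points (exact permutation p = 0.1, the smallest possible, 0.109 adjusted over the 12 tropomyosin tests).

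Between satellite cells and +Dox iPax7 cells the mean share of sarcomeric actins differed by 0.86 points and the mean share of Tpm3 by 43.06 points. Dividing by other lengths moved these shares but kept the order of the groups for the sarcomeric actins, Tpm2 and Tpm3. In bulk RNA, fewer cells of a kind and less RNA per cell cannot be told apart.

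**Figure D3:**
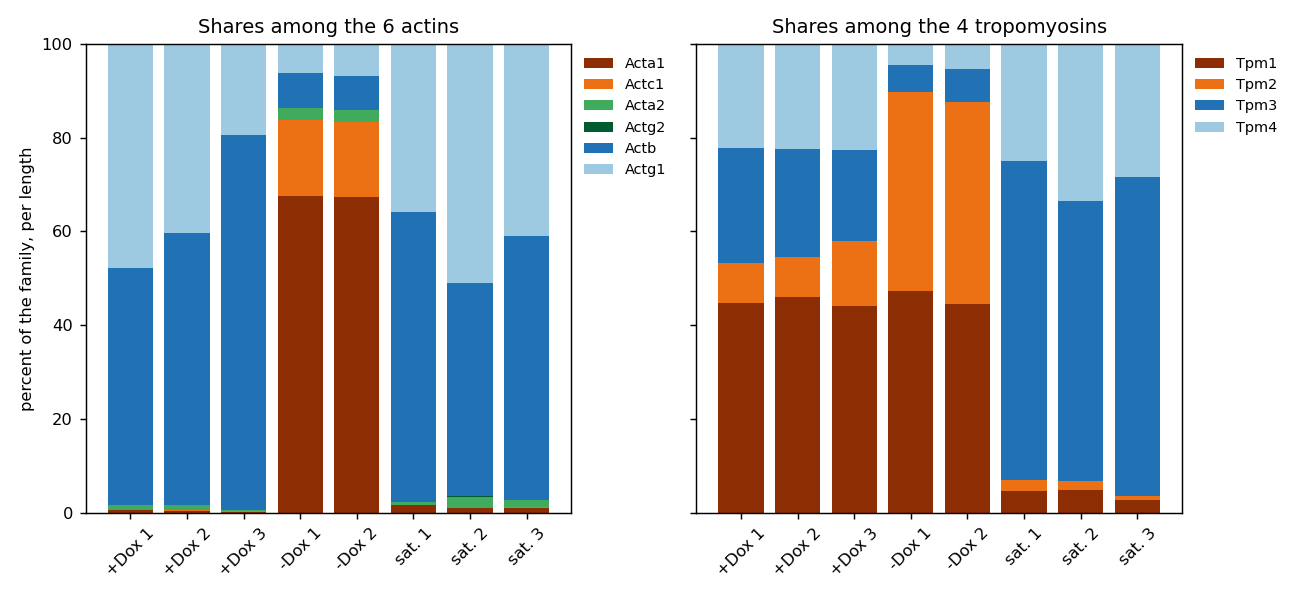
Stacked bars of the share (percent, counts divided by exon length) of each gene among the 6 actins (left) and the 4 tropomyosins (right) in the 3 +Dox, 2 -Dox and 3 satellite cell libraries. Actb and Actg1 fill the +Dox and satellite cell bars and Acta1 with Actc1 the -Dox bars, while Tpm3 with Tpm4 fills the satellite cell bars and Tpm1 is at 44.1% to 47.4% in all 5 iPax7 libraries.

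Within a group, neighbouring genes could not always be ordered. Per kilobase, in +Dox, Tpm3 (6289 to 8468 normalized counts) overlapped Tpm4 (7433 to 7992), and Tpm2 (2924 to 4559) overlapped Acta2 (1755 to 3920). In satellite cells Actb (153531 to 253868) overlapped Actg1 (146972 to 178386), Acta1 (3201 to 6679) overlapped Acta2 (2081 to 8219), Tpm4 (6098 to 12179) overlapped both of these, and Tpm2 (330 to 547) overlapped Actc1 (251 to 507). In -Dox all neighbours were separate, from Acta1 (766445 to 803071) down to Actg2 (60.5 to 138), and Acta2, Tpm1 and Tpm2 lay close together between 30232 and 35558. These orders rest on union exon length, which was 4780 bases for Tpm1, 2729 for Tpm2 and 1781 for Acta2. Their longest coding sequences were nearer in length, at 978, 921 and 1131 bases. Before division by length, their normalized counts in -Dox were 169968 and 155282 (Tpm1), 86684 and 85934 (Tpm2) and 53987 and 53844 (Acta2). Per coding length Tpm1 would thus lie well above Tpm2 and Tpm2 above Acta2, so that their closeness rests on union exon length. The order of Actb over Actg1 in -Dox rests on it as well and would turn per unique 50-base window.

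Among 6285 genes with a mean of at least 1000 normalized counts, the highest Pearson r with Acta1 on the log2 scale belonged to H19 (0.990), a imprinted non-coding RNA, Mospd1 (0.989) and Tmem8c (0.989), the fusion factor myomaker. For Actc1 they were Mybph (0.994), a myosin-binding protein, H19 (0.993) and Tmem8c (0.992). For Acta2 they were Spcs3 (0.994), a signal peptidase subunit, Maged1 (0.986) and Csrp3 (0.986), a muscle LIM protein. These are descriptions over 8 points in 3 groups, which the high -Dox pair dominates.

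The partners of sarcomeric thin filaments moved with Acta1 and Actc1 in -Dox. Of the 20 genes of this list found in the files (nebulin, troponins, leiomodins, tropomodulins, alpha-actinins and others), 18 were higher in -Dox than in +Dox, 0 lower and 2 (Cap2 and Tmod4) not called, with a median log2 change of 8.07, beside 4.66% higher and 3.04% lower over all genes. The largest changes were in Xirp1, an actin-binding protein of the myotendinous junction, at 0.751, 0.741 and 0 normalized counts in +Dox and 4554 and 5448 in -Dox, and in Lmod2, a filament nucleator, at 0, 2.22 and 0 in +Dox and 2769 and 3053 in -Dox. In satellite cells 7 of the 20 were higher than in +Dox and 4 lower, and the median log2 change was -0.05, beside 25.1% higher and 19.8% lower over all genes, so that the lower calls were at the background rate. Again Xirp1 (167.2, 955.7 and 306 normalized counts in satellite cells) and Lmod2 (313.3, 217.1 and 209.7) changed the most. Against -Dox, 17 were lower in satellite cells, 0 higher and 3 not called, led by the slow troponin Tnnc1 (218300 and 189500 in -Dox, 0, 48.3 and 56.7 in satellite cells) and Nrap (5763 and 6523 in -Dox, 1.32, 0 and 6.59 in satellite cells), beside 18.1% lower and 20.9% higher over all genes.

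Among 11 contractile partners of smooth muscle actin, 5 were higher in -Dox than in +Dox (Tagln, Des, Mylk, Smtn and Synpo2), 1 was lower and 5 were not called, beside 4.66% higher and 3.04% lower over all genes. Des, the intermediate filament protein desmin, which skeletal muscle also uses, rose from 910, 765 and 1234 normalized counts in +Dox to 11340 and 12660 in -Dox (log2 change 3.63 ± 0.28, adjusted p = 8.51e-05). Cnn1, a calponin of smooth muscle, was at 25.5, 21.5 and 60.1 in +Dox and at 0 in both -Dox libraries (adjusted p = 0.0371). In satellite cells 6 were higher than in +Dox and 2 lower, the latter near the 19.8% over all genes (25.1% were higher). The largest differences were in Myh11, the smooth muscle myosin, at 0 in all +Dox libraries and 898, 2194 and 732 in satellite cells, and in Myocd, a cofactor of serum response factor, at 0 in +Dox and 72.4, 152.8 and 11.9 in satellite cells. Against -Dox, 4 were higher and 2 lower in satellite cells, with Cnn1 (50.0, 72.4 and 89.7 in satellite cells) and Myh11 ahead. Over all genes 20.9% were higher and 18.1% lower there, so that the lower calls were at the background rate. The differences of satellite cells in this list go with the summed smooth muscle and pericyte markers given above, and Myh11 and Cnn1 are on both lists.

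Of 19 genes of general actin turnover found, 1 was higher in -Dox (Tmsb10, a thymosin that binds actin monomers, 33860, 40640 and 70300 normalized counts in +Dox and 169400 and 155500 in -Dox), 1 was lower (Gsn, the severing protein gelsolin, 26790, 27980 and 20410 against 5989 and 9694) and 17 were not called, with a median log2 change of -0.22. Calls in this list between the iPax7 groups were thus about as frequent as over all genes (4.66% higher and 3.04% lower). In satellite cells 2 were higher than in +Dox, namely Gsn (285900, 139300 and 110200) and Arpc5, a subunit of the Arp2/3 complex (16620, 11690 and 28170, against 3839, 4546 and 4490 in +Dox), and 9 were lower, beside 25.1% higher and 19.8% lower over all genes. Against -Dox, 4 were higher and 6 lower, beside 20.9% and 18.1% over all genes, so that the higher calls were at the background rate. The largest changes of the list there were in Gsn (log2 change 4.51 ± 0.50) and Tmsb10 (-3.78 ± 0.36).

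Serum response factor and its cofactors drive many actin genes. Of the 4 such genes found, Mkl2, a cofactor sensitive to free actin, was higher in -Dox (2533, 2992 and 2965 normalized counts in +Dox and 5758 and 6202 in -Dox, log2 change 1.08 ± 0.27, adjusted p = 0.0433) and the other 3 were not called. Over all genes 4.66% were higher and 3.04% lower. Srf itself was at 399, 330 and 351 in +Dox, 277 and 325 in -Dox and 2079, 1847 and 1773 in satellite cells, where it was higher than in +Dox (log2 change 2.40 ± 0.31, adjusted p = 0.000326) and than in -Dox (2.66 ± 0.37, adjusted p = 0.000578). Myocd was also higher in satellite cells than in +Dox (adjusted p = 0.0135), while Mkl1 and Mkl2 were not called there. Against -Dox, Mkl2 was lower in satellite cells (log2 change -1.52 ± 0.27, adjusted p = 0.00233), and Myocd (adjusted p = 0.0847) and Mkl1 were not called. The list thus had 2 higher and 0 lower in satellite cells against +Dox, beside 25.1% and 19.8% over all genes. Against -Dox it had 1 higher and 1 lower, near the 20.9% and 18.1% over all genes.

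The binding element of this factor, the CArG box, was looked for in the 250 bases before the start of each gene's main annotated transcript, on both strands. An exact match to its pattern (CC, 6 bases of A or T, GG) was present in 5 of the 6 actins and 0 of the 4 tropomyosins, and in 1.31% of the promoters of all 22354 protein-coding genes searched. For Tpm1, Tpm3, Actg1 and Actg2 the start used was the upstream one, and their downstream starts were not searched. The promoters of the 4 muscle actins are shown because the per-length levels of their genes in -Dox ran from the highest (Acta1) to the lowest (Actg2) of the 10, with CArG boxes in capitals, read 5′ to 3′ on the strand of the gene, which is the minus strand of NCBIM37 for all of them.
Acta1, chr8:126418652-126418901: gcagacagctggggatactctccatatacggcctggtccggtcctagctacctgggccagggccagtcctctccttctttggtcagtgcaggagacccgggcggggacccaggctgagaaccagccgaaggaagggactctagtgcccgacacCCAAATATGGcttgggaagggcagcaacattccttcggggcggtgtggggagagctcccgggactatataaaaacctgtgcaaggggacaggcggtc
Actc1, chr2:113878624-113878873: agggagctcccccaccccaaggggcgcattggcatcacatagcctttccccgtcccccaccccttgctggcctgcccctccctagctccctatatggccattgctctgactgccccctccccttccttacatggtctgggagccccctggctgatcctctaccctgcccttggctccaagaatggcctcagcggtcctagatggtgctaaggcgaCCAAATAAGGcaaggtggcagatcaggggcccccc
Acta2, chr19:34329827-34330076: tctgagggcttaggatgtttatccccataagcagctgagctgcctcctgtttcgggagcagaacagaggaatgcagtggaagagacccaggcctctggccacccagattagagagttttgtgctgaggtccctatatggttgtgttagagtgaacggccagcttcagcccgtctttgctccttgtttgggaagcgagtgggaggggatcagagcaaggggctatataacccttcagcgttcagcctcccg
Actg2, chr6:83486260-83486509: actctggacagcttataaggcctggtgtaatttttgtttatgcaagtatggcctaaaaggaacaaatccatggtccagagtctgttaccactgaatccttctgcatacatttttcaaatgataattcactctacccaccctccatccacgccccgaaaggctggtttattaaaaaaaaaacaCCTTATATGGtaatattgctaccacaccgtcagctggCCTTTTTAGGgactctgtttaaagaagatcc
Acta1 held 1 box, at -97 to -88 from the start, Actc1 held 1 at -35 to -26, and Actg2, the lowest of the actins in every library, held 2, at -68 to -59 and -31 to -22. Acta2 held no exact box in this window. Stretches 1 base off the pattern, such as ccctatatgg in Acta2 and Actc1 and ccttgtttgg in Acta2, were not counted in any promoter. Actb and Actg1 held 1 each. The E-box CANNTG, the element bound by MyoD and Myog, was in 5 of the 6 actin and 3 of the 4 tropomyosin promoters and in 63.3% of all promoters, and the MCAT element CATTCC was in the promoters of Acta1 and Acta2 and in 11.2% of all. A match is a description of the sequence and not a bound site.

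Chromatin at these promoters was read from lists of peaks, each called by the authors on merged replicates, so that a peak has no replicate check and list lengths differ (42700 to 172103 ATAC peaks). ATAC-seq marks accessible chromatin. A promoter peak here is one that touches the 1000 bases on either side of an annotated start. In the ATAC lists 7 of the 10 genes had one in +Dox, 7 after 12 h and 7 after 24 h without doxycycline, 8 after 3 days, 9 in myotubes from iPax7 cells, 7 in satellite cells, 7 in C2C12 myoblasts and 9 in C2C12 myotubes (C2C12 is a mouse muscle cell line). The share of all 22359 protein-coding genes with a promoter peak was 63%, 61.2%, 64.2%, 65.4%, 61.6%, 58.4%, 44.9% and 54% in the same order.

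The genes without a peak in +Dox were Acta1, Actc1 and Actg2. Acta1 had no promoter ATAC peak in +Dox, at 12 h, 24 h or 3 days without doxycycline, in satellite cells or in C2C12 myoblasts, and had one in iPax7 myotubes (fold enrichment over background 16.2) and C2C12 myotubes (14.3), near the median of promoter peaks in those lists (16.7 and 13.9). Actc1 gained a weak peak at 3 days (3.14, where the median promoter peak was 21.4) and had peaks in iPax7 myotubes (15.9) and C2C12 myotubes (10.1, median 13.9). At 3 days, therefore, Acta1 stood at 1108280 normalized counts or more with no promoter peak called in the ATAC list of the same condition, and with a window of 5000 bases on either side the number of the 10 genes with a peak was 9 in both +Dox and -Dox 3 days. Actg2 had no promoter ATAC peak in any of the 8 lists.

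Acta2 had a promoter peak in all 8 lists, at fold enrichments of 5.77 in +Dox, 3.62 at 12 h, 6.66 at 24 h and 4.72 at 3 days, below the median of promoter peaks each time, and of 35.0 in iPax7 myotubes, 36.6 in C2C12 myotubes, 17.2 in satellite cells and 5.21 in C2C12 myoblasts. Those in myotubes were above at least 83.8% of promoter peaks of their list. Actb, Actg1, Tpm1, Tpm2 and Tpm4 had peaks in all lists, and the Actb peak was at or above 90.7% of promoter peaks in +Dox (66.6) and 92.7% at 3 days (73.2).

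The separate starts of Tpm3 behaved differently. At the downstream start, which gives the cytoskeletal form, a peak was called in all 8 lists (44.3 in +Dox, 40.5 at 3 days, 21.7 in satellite cells, 29.9 in iPax7 myotubes). At the upstream start, which gives the muscle form, peaks were called in iPax7 myotubes (6.62) and C2C12 myotubes (7.28) and in none of the other 6 lists. Both starts of Tpm1 had peaks in all 8 lists, at 38.0 upstream and 34.9 downstream in +Dox and at 5.66 and 15.8 in satellite cells. Fold enrichments depend on the depth of each list, so that a value is to be read against the promoter peaks of its own list.

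Acta1 and Actc1 also gained histone marks of active promoters, while Acta2, Tpm1 and Tpm2, which rose too, carried them in both conditions. H3K27Ac and H3K4me3, marks of active promoters, and H3K4me1, found at enhancers and promoter flanks, were each called at 7 of the 10 genes in +Dox, where the shares of all genes were 48%, 60.3% and 61.6%. In -Dox at 3 days they were called at 9, 9 and 10 genes, with 45.1%, 65.9% and 64.8% of all genes. The genes that gained H3K27Ac and H3K4me3 peaks were Acta1 and Actc1, and the upstream start of Tpm3, the muscle promoter, also gained peaks of all 3 marks. Actg2 gained H3K4me1 alone, at its upstream start. The H3K4me3 list of -Dox at 3 days covered 155 megabases and that of +Dox 63.6, and for H3K4me1 the lists covered 155.5 and 127.9, so that a gain of either mark goes with a longer list, while the H3K27Ac list was shorter at 3 days (49.2 megabases against 73.1). H3K27me3, a mark of repressed chromatin, was called in +Dox at Acta1, Actc1 and Actg2 (21.8% of all genes) and at 3 days at Acta1 and Actg2 (19.9% of all genes). The Actg2 peak was at its downstream start in both conditions, with none at the upstream start. Actc1 lost its H3K27me3 peak as it gained the active marks, and Acta1 was called for both kinds at 3 days. The H3K27me3 list was shorter at 3 days (65.9 megabases against 91.7 in +Dox), so that a loss of this mark goes with a shorter list.

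**Figure D4:**
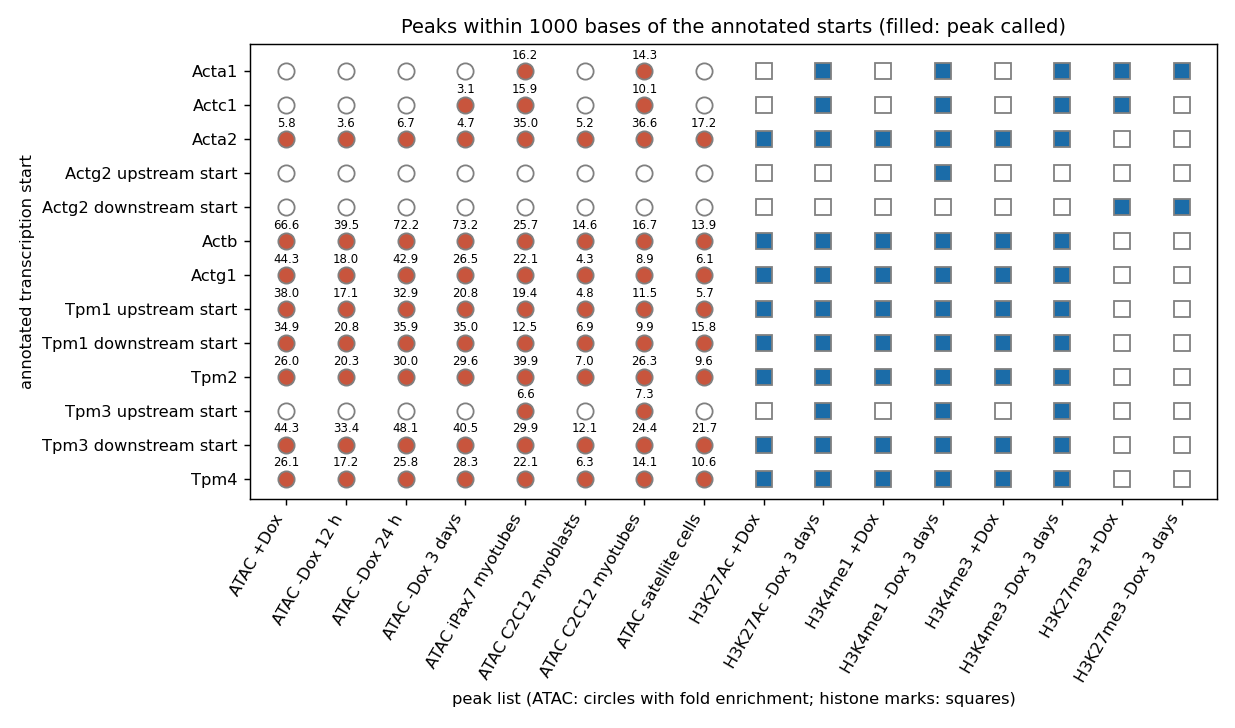
Peaks within 1000 bases of each annotated start (rows, with separate rows for the upstream and downstream starts of Actg2, Tpm1 and Tpm3, and a second start of Actg1 inside the gene left out) in 8 ATAC lists (circles, with fold enrichment above) and 8 histone mark lists (squares), filled where a peak was called. The ATAC circles of Acta1 and of the upstream start of Tpm3 are filled in the 2 myotube lists alone, and their H3K27Ac squares in -Dox at 3 days but not in +Dox.

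Pax7 binding sites, of which the list has 2455, were not at these promoters. The nearest site lay 22105 bases from a start of Tpm1, 22300 from Acta1, 25990 from Actb, 65519 from Actg1, 123500 from Tpm2, 150736 from Actc1, 394943 from Actg2, 564112 from Tpm3, 665586 from Tpm4 and 1344609 from Acta2. Over all protein-coding genes the median distance was 401573 bases, and 5.81% of genes had a site as near as that of Tpm1.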

How the data were processed

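RNA-seq values were the deposited counts per gene symbol, which the authors made with TopHat2 and HTSeq according to the submitters' processing notes (mm9). Read length, strand setting and annotation are not given in the sources used here. Rows naming no gene were left out. Counts were normalized with TMM and tested with edgeR 4.0.16 (quasi-likelihood test, all 8 libraries, filterByExpr, Benjamini-Hochberg over 14836 genes, call at an adjusted p of 0.05), after the script was tested on simulated data. SE is the log2 change over the square root of F. Normalized counts were divided by the union exon length of protein-coding transcripts (GENCODE M1, NCBIM37) for shares, which were compared by exact two-sided permutation tests over libraries. The authors called ATAC peaks with MACS2 (deposited as fold enrichment, a ratio, and -log10 q) and histone peaks with Qeseq on merged replicates. Deposited coordinates were used as given. Replicate numbers stand in the file names only. Genes named from lists were the 2 with the largest called change per comparison. Members and lists were chosen with earlier results of these data known. DESeq2 1.42.0, other scalings, filters and lengths, and each library left out were alternatives. Peak lists of other C2C12 samples were not used here.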

Additional observations from a re-analysis of the deposited data

How the results depend on the processing

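In -Dox against +Dox, 1142 genes were called over all genes, 2137 by DESeq2, 2155 with only the libraries of both groups and 4017 with a replicate block. The 5 members called became 8 by DESeq2, 8 with library totals and 8 with only the libraries of both groups. With the replicate block, a term for each library number, they became 9, and Actb, Actg1, Tpm3 and Tpm4 passed as lower. No -Dox library has the number 3, so +Dox library 3 added nothing to the log2 changes of this block fit. They were near those without +Dox library 3 for Actb (-1.05 and -1.06), Acta2 (3.03 and 3.03) and Tpm2 (3.40 and 3.40). The block counts for -Dox against +Dox are therefore not an alternative on all libraries of both groups. Deviations from the group mean correlated between -0.0398 and 0.0272 for same-numbered libraries of different groups and between -0.0404 and 0.0537 for the others. With 2 or 3 libraries a group these deviations constrain each other, so they cannot show whether same-numbered libraries belong together. Leaving out 1 library gave 488 to 1444 genes and 4 to 6 members there, and 3204 to 6131 genes and 6 to 9 members in satellite cells against -Dox, beside 5780 and 9 with all libraries. With the block, Actc1 in satellite cells against +Dox (adjusted p = 0.11) and Actb, Actg1 and Tpm4 in satellite cells against -Dox (0.0605, 0.0806 and 0.084) no longer passed. Library totals moved the median log2 change of all genes in satellite cells against +Dox from 0.17 to -0.20.

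With library totals, values in satellite cells against +Dox turned to -0.15 for Actg2, -0.049 for Actg1 and -0.21 for Tpm4, and with the block to -0.21 for Actg2, none called. They also turned without the third +Dox library for Actb (0.28, range over left-out libraries -0.56 to 0.28), without the first satellite cell library for Actg2 (-0.49, range -0.49 to 0.66) and without the third for Tpm4 (-0.11, range -0.11 to 0.40). The cause was not tested.

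Shares moved with the length used, and no difference between group means turned with it. Leaving out 1 library did turn some differences between groups that overlapped, in percentage points. Tpm1 in -Dox minus +Dox ran from -0.4 to 2.42. In satellite cells minus +Dox, Actb ran from -14.43 to 0.34 and Actg1 from -1.46 to 12.77. Differences in percentage points with raw counts, coding length and unique windows in turn were 77.54, 77.75 and 73.75 for the sarcomeric actins in -Dox minus +Dox and -76.96, -77.17 and -73.28 in satellite cells minus -Dox. With unique windows they were 0.47 for the sarcomeric actins in satellite cells minus +Dox, and for smooth actins in -Dox minus +Dox they were 2.22 with raw counts and coding length. For Tpm1 in -Dox minus +Dox they were 3.47 with coding length and 6.51 with unique windows, in satellite cells minus +Dox -51.85, -48.61 and -33.82, and minus -Dox -53.35 and -52.07 with raw counts and coding length. For Tpm2 they were 23.92 and 24.76 with raw counts and coding length in -Dox minus +Dox, and -30.12, -30.99 and -39.66 in satellite cells minus -Dox. For Tpm3 they were -20.68 with unique windows in -Dox minus +Dox, and with raw counts and coding length 51.70 and 48.91 in satellite cells minus +Dox and 67.09 and 65.01 minus -Dox. Under other windows and a stricter threshold, all 40 promoter peak counts stayed within 1.5 times, though a count of 7 or more of the 10 genes could not rise beyond that. The stricter threshold was a -log10 q of 10. The strongest promoter peaks of Actc1 at 3 days (7.15), Acta2 at 12 h (7.83) and Actg1 in C2C12 myoblasts (8.83) were under it. The Actc1 peak at 3 days, and peaks of Acta2 and Actg1 in all 8 ATAC lists, thus rest on the deposited threshold.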
